A study of Tabanus nipponicus with 3 samples.

Results

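The argonaute and piwi family comprised 5 of the 8039 unigenes, or assembled transcripts, measured by RNA sequencing in the midguts of Tabanus nipponicus, a horse fly whose females feed on blood. The members were the unigenes whose best protein hit was named argonaute 1, argonaute 2, argonaute 3, piwia or piwib, and no other best hit was named argonaute, piwi or aubergine. The flies were 3 wild-caught adult females of genotype WT, labelled as replicates 1 to 3 of 1 group and called flies 1, 2 and 3 here, with 1 midgut and 1 library per fly. No treatment was compared, so levels and differences between individual flies are described. The sources used here do not give the age or feeding state of the flies. The values of fly 3 stand in a column numbered 4, which the description of its sample names.

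Argonaute proteins hold a small RNA that leads them to matching RNA. In Drosophila, argonaute 1 works with microRNAs, which tune the output of the animal's own genes. Argonaute 2 works with siRNAs, which Dicer-2 cuts from double-stranded RNA such as the intermediates of virus replication, and it slices the matching RNA in antiviral defence. Piwi, aubergine and argonaute 3 carry piRNAs, which restrain mobile elements and are best known from the germline, although in mosquitoes the piwi family is larger and is also active in body tissues. These roles are background from other flies and were not measured here.

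Levels were given as FPKM, reads scaled to unigene length and library depth, a scale that allows unigenes of unequal length to be compared. The recovered depth was 29308867 to 33797869 reads per fly, and all 5 members had whole read numbers in every fly. Fly 3 had more detected unigenes than the others, 7637 against 6948 in fly 1 and 6898 in fly 2 at an FPKM of at least 1. The median log2 shifts of all unigenes were -0.05, -0.33 and 0.42 in flies 1, 2 and 3. The members' levels are therefore also given after median-of-ratios scaling, which sets the typical unigene equal between flies. That scaling divides every ratio of fly 3 to fly 2 by 1.51 and every ratio of fly 1 to fly 2 by 1.17, and the FPKM of other unigenes are given as deposited. Among unigenes whose mean reached 1 FPKM, fly 2 was lowest for 57.5% and fly 3 was highest for 66.1%, and after the scaling for 32.2% and 39.7%.

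The members were named from another horse fly. All 5 had their best hit in the horse fly Tabanus bromius, of the same genus, and no other unigene of the 8039 did. Argonaute 1 (TRINITY_DN3779_c0_g1_i89, 3204 bases) was identical to its hit over 821 aligned residues of a protein of 963. Piwib (TRINITY_DN5557_c0_g1_i38, 3147 bases), argonaute 3 (TRINITY_DN13435_c0_g1_i19, 3337 bases) and piwia (TRINITY_DN8513_c0_g1_i3, 3574 bases) shared 95.8%, 95.3% and 95.1% of residues with theirs. Piwia and piwib aligned with their hits from the first to the last residue.

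Argonaute 2 (TRINITY_DN2223_c0_g2_i11, 2892 bases) had the lowest identity of the 5, 78.3%. Its alignment began at residue 189 of 915, although 624 bases of the unigene lay before it. The median identity over all 7898 unigenes with a hit was 65.5%, and only 13 of all best hits came from the genus Tabanus, so the identities of the members and of other unigenes refer to unequal distances between species.

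**Figure D1:**
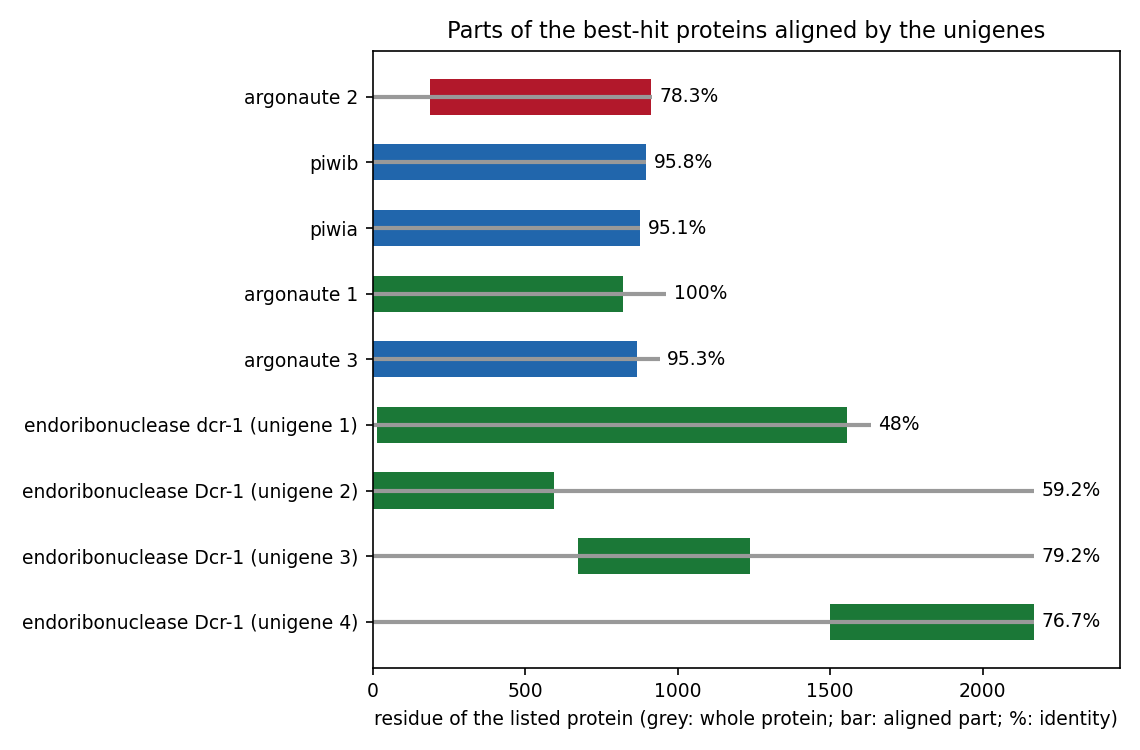
Aligned part of the listed protein for the 5 members and the 4 unigenes named Dcr-1; the x axis is the residue of that protein, grey lines its whole length, coloured bars the aligned part, and the number the percent of identical residues. Argonaute 2 is the member whose alignment starts late, at residue 189, and unigenes 2 to 4 named Dcr-1 cover separate parts of 1 protein of 2169 residues.

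In the siRNA branch, argonaute 2 stood at 351, 48.3 and 700 FPKM in flies 1, 2 and 3, from 32422, 4720 and 59373 recovered reads. Flies 1 and 3 were high and fly 2 was low. The mean was 367 ± 326 FPKM (SD, n = 3), and 199.7 FPKM without fly 3. Fly 1 was 7.27-fold and fly 3 14.5-fold above fly 2, while fly 3 was 1.99-fold above fly 1. The 95% interval of the 14.5-fold ratio was 13.9 to 15.1, which covers counting error only, and each fly is 1 library with no replicate of its own. In fly 3 argonaute 2 was the unigene of rank 134 from the top, in fly 1 of rank 198 and in fly 2 of rank 911. After median-of-ratios scaling it stood at 360, 57.6 and 553 FPKM in flies 1, 2 and 3, so the same fly was low and the highest to lowest fold was 9.60.

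Argonaute 1, the microRNA member, stood at 9.70, 6.70 and 8.83 FPKM in flies 1, 2 and 3, a mean of 8.41 ± 1.54 (SD, n = 3). The 3 flies lay close together, with 1.45-fold between the highest and the lowest (95% counting interval 1.26 to 1.66). Which fly was lowest depended on the scaling, since after median-of-ratios scaling the values were 9.93, 8.002 and 6.97.

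The piRNA members differed in level and in pattern. Piwib stood at 46.3, 38.8 and 61.5 FPKM in flies 1, 2 and 3, a mean of 48.9 ± 11.5 (SD, n = 3), and was the most abundant of them in every fly. Its 1.58-fold range was almost wholly removed by median-of-ratios scaling, to 1.05-fold. Piwia stood at 9.11, 6.64 and 11.5 FPKM, a mean of 9.09 ± 2.45 (SD, n = 3), and its 1.74-fold range became 1.18-fold, with fly 1 in place of fly 3 as the highest.

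Argonaute 3, which in Drosophila pairs with aubergine to amplify piRNAs, stood at 4.22, 3.77 and 13.9 FPKM in flies 1, 2 and 3. Its mean was 7.30 ± 5.73 (SD, n = 3), and 3.996 FPKM without fly 3. Here fly 3 alone was high, 3.69-fold above fly 2 (95% counting interval 3.16 to 4.33) and 3.29-fold above fly 1, whereas flies 1 and 2 differed 1.12-fold. After median-of-ratios scaling the values were 4.33, 4.50 and 10.99, a 2.54-fold range, and fly 1 in place of fly 2 was lowest. Argonaute 3 and argonaute 2 were thus both highest in fly 3 but placed fly 1 differently, near fly 2 for argonaute 3 and near fly 3 for argonaute 2.

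**Figure D2:**
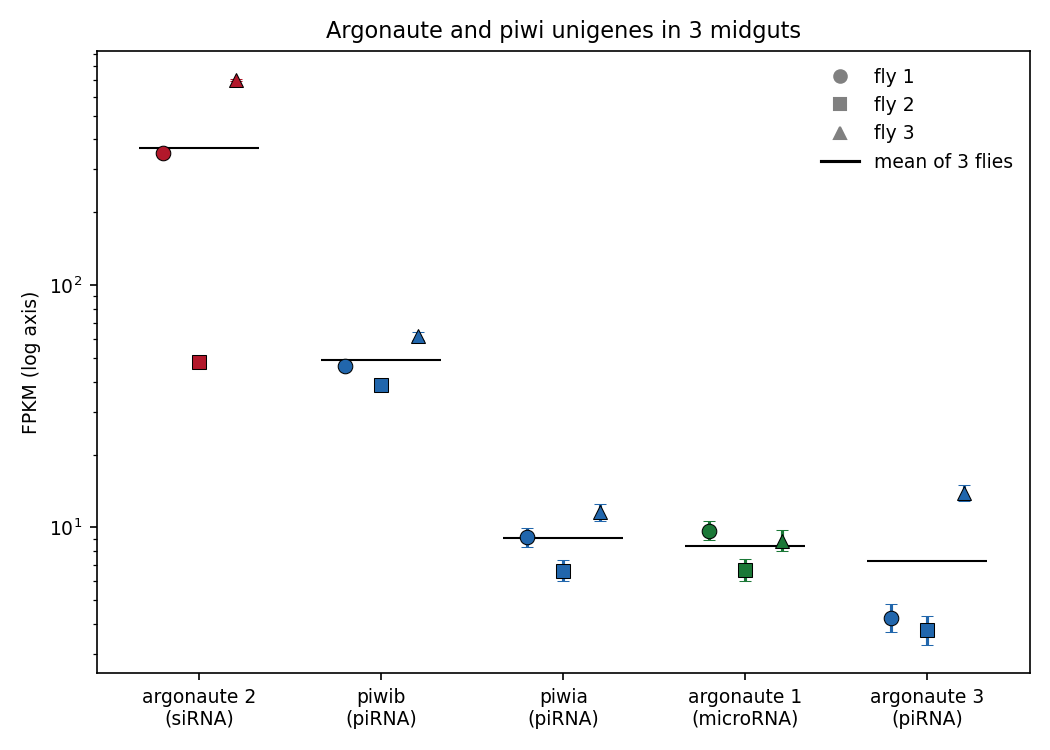
FPKM of the 5 members (y axis, log scale) in fly 1 (circles), fly 2 (squares) and fly 3 (triangles), with the mean of 3 flies as a line and 95% counting intervals as bars, often smaller than the symbol. Argonaute 2 runs from 48.3 to 700 FPKM, whereas argonaute 1, piwia and piwib each stay within 1.74-fold.

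The flies stood in the order 3, 1, 2 for 4 of the 5 members, all but argonaute 1, and for 45.1% of the 7384 unigenes whose mean reached 1 FPKM. After median-of-ratios scaling that order held for 2 of the 5, argonaute 2 and piwib, and for 21.6% of the 7384. Fly 2 was lowest for all 5, or for 3 of 5 after median-of-ratios scaling.

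By mean FPKM the order of the members was argonaute 2, piwib, piwia, argonaute 1 and argonaute 3. Argonaute 2 was above piwib in 3 of 3 flies, although their ranges over flies overlapped, since argonaute 2 in fly 2 was below piwib in fly 3. Piwib was above piwia in 3 of 3 flies without overlap, by 2.31 ± 0.08 on the log2(FPKM + 1) scale (SD, n = 3; exact sign-flip permutation test, two-sided, p = 0.25, which is the smallest p that 3 flies allow; adjusted p = 0.5 over 4 neighbouring pairs). Piwia was above argonaute 1 in 1 of 3 flies and argonaute 1 above argonaute 3 in 2 of 3 flies, so the lower 3 members had no order that held in every fly.

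The balance between the branches was then compared within each fly, which removes any scaling shared by the members. On the log2(FPKM + 1) scale argonaute 2 exceeded argonaute 1 by 4.63 ± 1.78 (SD, n = 3), higher in 3 of 3 flies, with an exact permutation p of 0.25 and 0.375 after Benjamini-Hochberg adjustment over 3 ratios. As plain FPKM ratios these were 36.2-fold in fly 1, 7.20-fold in fly 2 and 79.3-fold in fly 3. The summed piRNA members exceeded argonaute 1 by 2.79 ± 0.34 (SD, n = 3), also in 3 of 3 flies (exact permutation p = 0.25, adjusted p = 0.375), or 6.15-fold, 7.34-fold and 9.85-fold. That excess rested on piwib, since the median of the piRNA members in place of their sum gave a mean log2 difference of 0.17. With that median the piRNA members were above argonaute 1 in fly 3 alone.

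The ratio of argonaute 2 to the piRNA members differed between flies. Argonaute 2 was 5.88-fold above the summed piRNA members in fly 1 and 8.06-fold in fly 3, but 0.981-fold, nearly level, in fly 2. The mean log2 difference of the piRNA members to argonaute 2 was -1.84 ± 1.63 (SD, n = 3; exact permutation p = 0.5, adjusted p = 0.5). Argonaute 2 made up 83.5%, 46.3% and 88.0% of the family's summed FPKM in flies 1, 2 and 3. The family's sum was 421, 104 and 796 FPKM, whereas the other 4 members together gave 69.4, 55.9 and 95.8.

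Variable unigenes were defined by a mean of 5 FPKM or more and a ratio of 4 or more between the extreme flies, taken on FPKM + 1. Of the 5 members, all of which had that mean, 1 was called, argonaute 2, beside 9.42% of all 5256 unigenes with that mean, and 4.68% were called with fly 3 highest and fly 2 lowest, as it was. Argonaute 2 also stood at least 4-fold above fly 2 in both other flies, which 1.58% of those unigenes did, a rule chosen after the values were seen. On the log2(FPKM + 1) scale its SD over flies was 1.99. Among the 137 unigenes whose mean log2 level lay within 0.5 of its own, 97.8% had a lower SD and 3 had a higher one, and their median SD was 0.40.

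The other members were spread through their neighbours. The SD of argonaute 3, 0.91, was above that of 88.6% of 1769 unigenes of similar level. The SD of piwia, 0.36, was above 51.8% of 1680, that of piwib, 0.33, above 44.8% of 660, and that of argonaute 1, 0.25, above 30.5% of 1713. After median-of-ratios scaling the places of argonaute 2 and argonaute 3 were 97.8% and 85.3%, whereas piwia fell to 11.6% and piwib to 0.761%, among the least variable unigenes of its level. Single flies decided the upper places: without fly 2 argonaute 2 stood above 77.9% of its neighbours with a log2 range of 0.99 in place of 3.83, and without fly 3 argonaute 3 stood above 21.8% with a log2 range of 0.13 in place of 1.65.

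**Figure D3:**
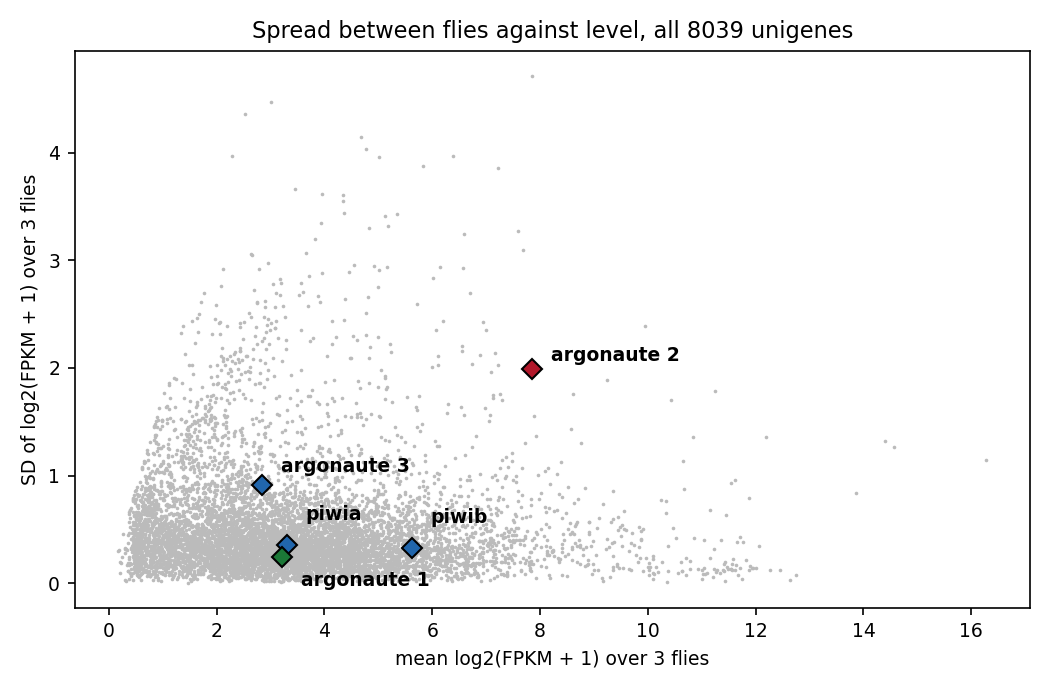
SD over 3 flies (y axis) against mean level (x axis), both of log2(FPKM + 1), for all 8039 unigenes in grey and the 5 members as diamonds coloured by branch (red siRNA, blue piRNA, green microRNA). Argonaute 2, with an SD of 1.99, lies above nearly all unigenes of its level, and argonaute 1, piwia and piwib lie within the bulk.

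The other unigenes of the small RNA pathways were taken from the names of their best hits, 13 for microRNAs, 4 for siRNAs and 18 for piRNAs. Of these 35, 30 had a mean FPKM of at least 5, and 7 were called variable. The called ones were 5 of 12 microRNA names, 1 of 4 siRNA names and 1 of 14 piRNA names, beside the 9.42% over all unigenes. All but 1 of the called microRNA names were unigenes named Dcr-1. Some of these aligned with parts of 1 protein, so the 5 calls are not independent. After median-of-ratios scaling 1 microRNA name, 1 siRNA name and 1 piRNA name were called, while the count over all unigenes went from 495 to 395. Without fly 2 the 3 lists held 0 called names, and without fly 3 they held 1. Of the 30, 7 were at least 2-fold above fly 2 in both other flies, beside 5.61% of all unigenes with that mean. They were the 7 called variable, so the 2 counts are not independent. After median-of-ratios scaling 5 of them still were, beside 3.84% of all unigenes. The median SD was 0.54 for the microRNA list, 0.40 for the siRNA list and 0.35 for the piRNA list, against 0.38 over all unigenes. Fly 2 was lowest for 31 of the 35 and fly 3 highest for 28, beside 57.5% and 66.1% of all unigenes whose mean reached 1 FPKM. After median-of-ratios scaling fly 2 was lowest for 21 and fly 3 highest for 18, beside 32.2% and 39.7%. With the 6 chaperone names added, the scaling changed the highest or the lowest fly for 21 of 41 unigenes.

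Several of the unigenes named for proteins that make or load small RNAs had the low value of argonaute 2 in fly 2. RISC-loading complex subunit tarbp2 (TRINITY_DN9829_c0_g1_i25, 55.8% identity), named for a partner of Dicer that binds double-stranded RNA, stood at 111, 26.5 and 257 FPKM in flies 1, 2 and 3. A unigene named endoribonuclease dcr-1 (TRINITY_DN174_c0_g1_i6, 7768 bases, 48.0% identity), for the enzyme that cuts microRNA precursors, stood at 90.3, 22.6 and 135 FPKM. Small RNA 2'-O-methyltransferase (TRINITY_DN1023_c0_g1_i12, 45.4% identity), in Drosophila the enzyme Hen1 that adds a methyl group to the ends of siRNAs and piRNAs, stood at 71.3, 17.6 and 122 FPKM. All 3 were lowest in fly 2 and highest in fly 3, like argonaute 2, and each was at least 2-fold above fly 2 in both other flies also after median-of-ratios scaling.

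The other 3 unigenes named Dcr-1 aligned with consecutive parts of 1 Hermetia illucens protein. Whether they are pieces of 1 transcript was not tested, so their calls are not independent of each other. They stood at 5.15, 1.95 and 11.8 FPKM (TRINITY_DN6221_c0_g1_i4), 7.18, 2.71 and 18.3 (TRINITY_DN8174_c0_g2_i13) and 8.10, 3.06 and 17.4 (TRINITY_DN8174_c0_g1_i3). They shared the order of the unigene with 48.0% identity at a far lower level. The unigene with 48.0% identity was matched to a protein of 1633 residues, the other 3 to one of 2169. The place of the former in the microRNA list rests on its name alone. No best hit was named Dicer-2 or R2D2, the siRNA partners known from Drosophila, and which Dicer each of these unigenes encodes was not tested. A unigene named for an activator of the double-stranded RNA-dependent protein kinase (TRINITY_DN5611_c0_g1_i6, 31.5% identity), chosen after its values were seen, stood at 38.1, 8.52 and 44.3 FPKM. A second of that name (TRINITY_DN1868_c0_g1_i20) stood at 2.65, 2.32 and 4.21 FPKM.

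The rest of the microRNA list lay at lower levels or differed less. Ribonuclease 3, the name listed for Drosha, and DGCR8, which together cut primary microRNAs in the nucleus, stood at 1.27, 0.903 and 1.45 FPKM and at 4.48, 4.75 and 7.43 FPKM. Exportin-5, which in mammals carries the precursors out of the nucleus, stood at 8.03, 6.80 and 20.3 FPKM, with fly 3 alone high. Protein Gawky, the GW182 protein that argonaute 1 binds in Drosophila, stood at 7.34, 6.80 and 9.58 FPKM. Ribonuclease 3 was below argonaute 1 in every fly. The other 4 names of this list, a pair named serrate RNA effector molecule, FMR1 and exonuclease mut-7, differed 1.45-fold to 2.36-fold.

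In the siRNA list, staphylococcal nuclease domain-containing protein 1, a part of the silencing complex in Drosophila, stood at 60.6, 62.7 and 56.6 FPKM and differed 1.11-fold between flies that differed 14.5-fold in argonaute 2. After median-of-ratios scaling fly 3 stood at 0.597 of fly 2 for this unigene. Translin stood at 60.5, 37.1 and 80.1 FPKM and translin-associated protein X at 33.7, 24.5 and 32.9 FPKM. These form the complex C3PO, which aids argonaute 2 loading in Drosophila. Neither was called variable.

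In the piRNA list, mitochondrial cardiolipin hydrolase (TRINITY_DN5770_c0_g1_i1, 43.7% identity), in Drosophila the piRNA-forming nuclease zucchini, was the called unigene, at 4.08, 0.891 and 12.4 FPKM. Protein arginine N-methyltransferase 5-like, which methylates piwi proteins in Drosophila, stood at 7.36, 3.45 and 12.9 FPKM. The helicases spindle-E and armi, which act in piRNA production in Drosophila, stood at 11.5, 7.88 and 13.3 FPKM and at 9.996, 7.02 and 12.7 FPKM. The other 14 names, with tudor, maelstrom, eggless, shutdown and TDRD12 among them, differed 1.27-fold to 2.67-fold. They include protein Asterix (168, 165 and 227 FPKM), a name also used for a protein outside the piRNA pathway. No best hit was named vasa.

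**Figure D4:**
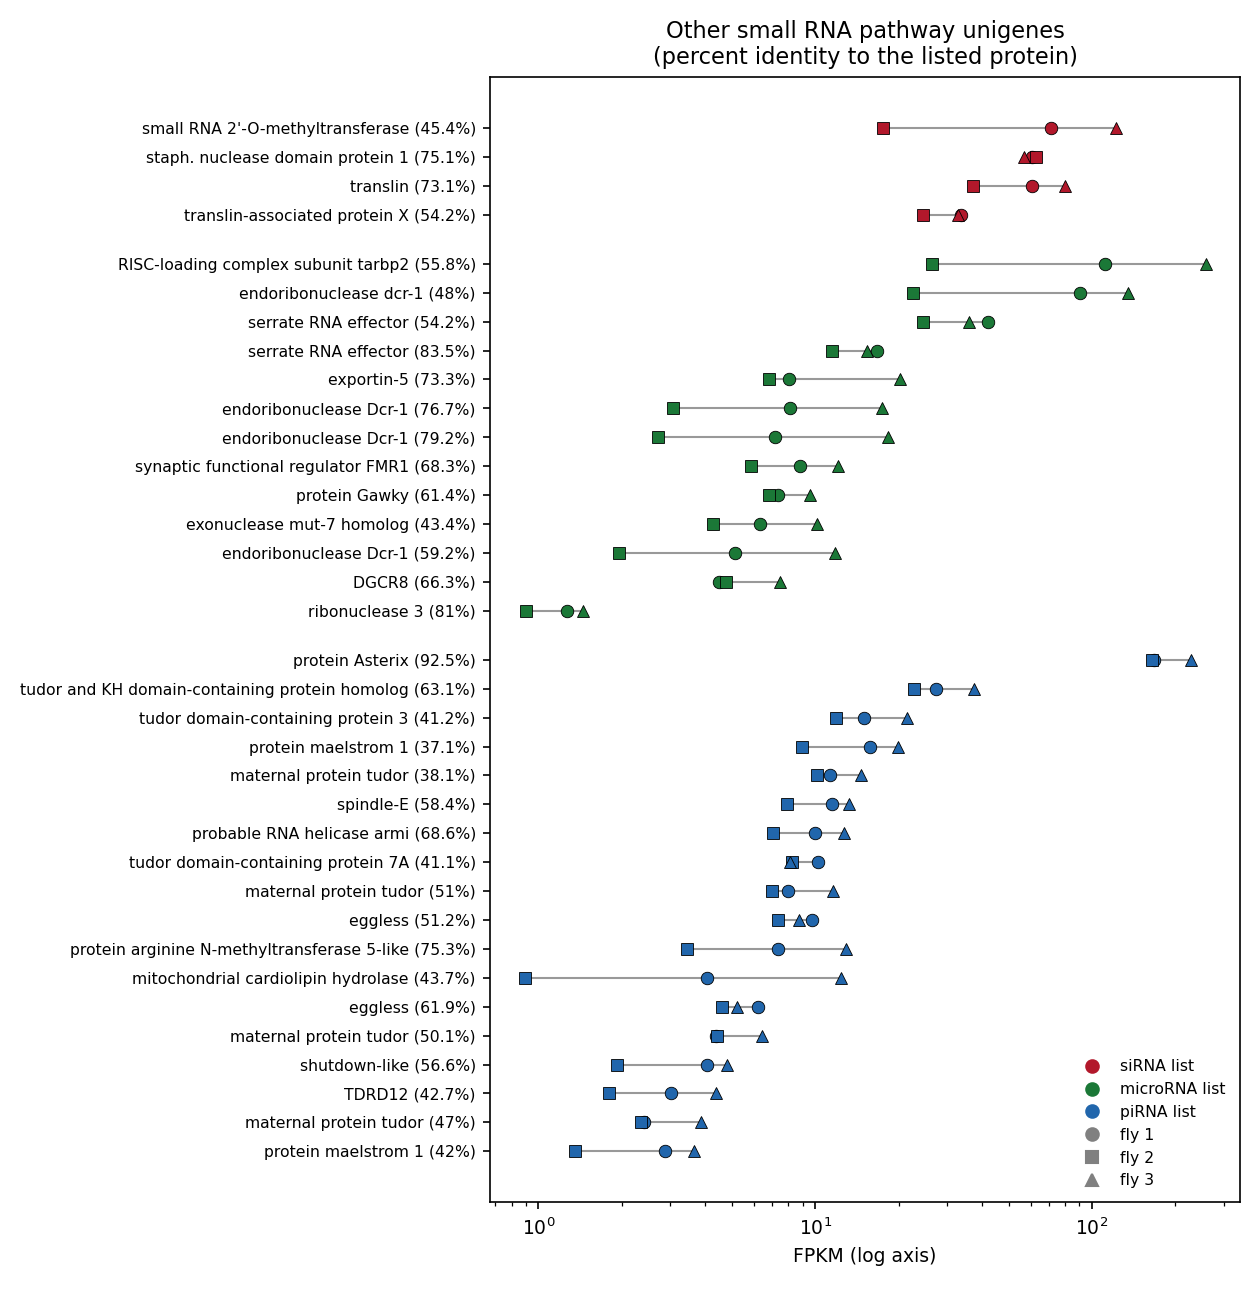
FPKM (x axis, log scale) of the 35 unigenes of the siRNA (red), microRNA (green) and piRNA (blue) lists in fly 1 (circles), fly 2 (squares) and fly 3 (triangles), each row named for its best hit with percent identity. The widest rows are the methyltransferase, tarbp2, the Dcr-1 unigenes and cardiolipin hydrolase, and in most rows the square is leftmost.

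Chaperones that load argonaute proteins in Drosophila were not all alike. Heat shock protein 83, the Hsp90 of flies, stood at 420, 77.4 and 170 FPKM and was the 1 of 6 chaperone names called variable, beside 9.42% of all unigenes, with fly 1 highest. Without fly 1 or without fly 2 that list held 0 called names. The pair of unigenes named stress-induced-phosphoprotein 1, the Hsp90 partner Hop, stood at 136, 45.5 and 166 FPKM and at 90.6, 28.5 and 101 FPKM. Heat shock 70 kDa protein cognate 4 stood at 1834, 1408 and 1492 FPKM, a 1.30-fold range.

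**Figure D5:**
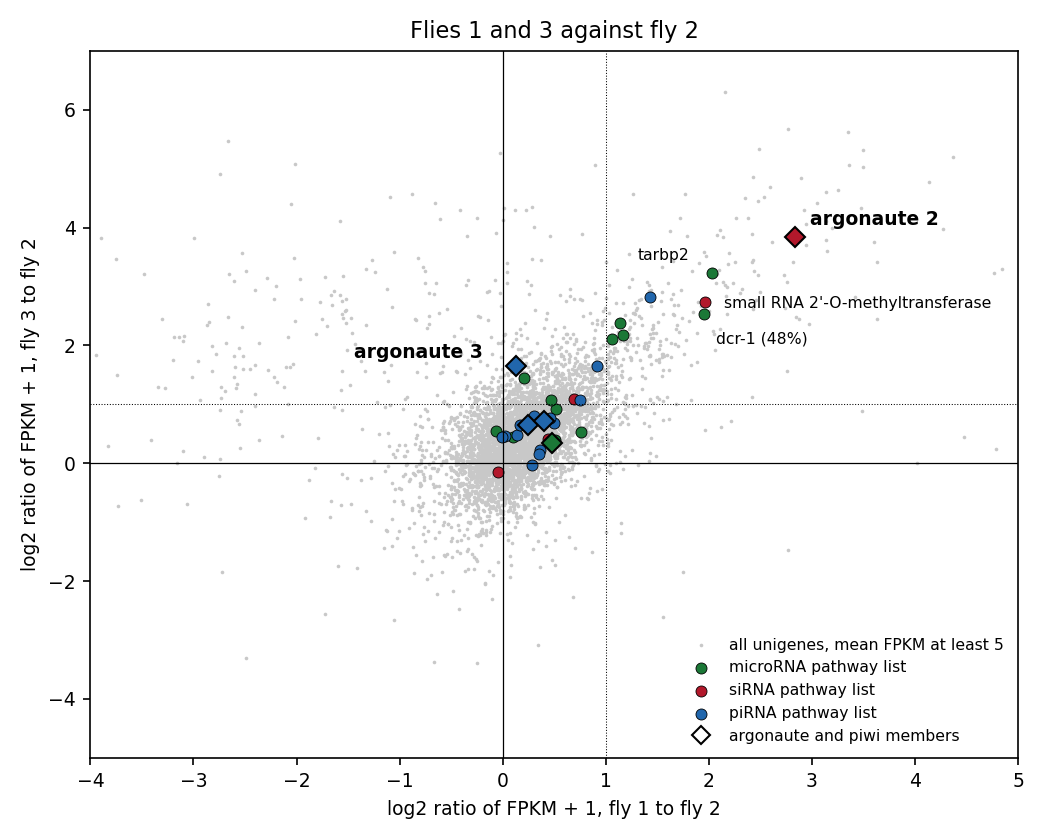
Log2 ratio of FPKM + 1 of fly 1 to fly 2 (x axis) and of fly 3 to fly 2 (y axis) for unigenes whose mean reached 5 FPKM, grey for all, circles for the pathway lists and diamonds for the members; dotted lines mark 2-fold, and 25 unigenes lie outside the axes. Argonaute 2 lies farthest to the upper right of the coloured points and argonaute 3 lies close to the vertical line, high in fly 3 alone; both axes share fly 2, so the slant of the cloud is no result.

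The unigenes whose profile over the 3 flies was nearest to each member were found among 5194 unigenes with a hit and a mean FPKM of at least 5, by the distance between centred log2(FPKM + 1) values. With 3 flies many unigenes must share any profile, so these are descriptions. The nearest to argonaute 2 was ERI1 exoribonuclease 2-like (TRINITY_DN2958_c0_g1_i8, 44.7% identity), at 224, 30.3 and 476 FPKM and a distance of 0.0768. Next came a cyclic GMP-AMP synthase-like receptor (TRINITY_DN3902_c0_g1_i15, 39.3% identity), one of a family that in Drosophila senses double-stranded RNA, at 42.2, 4.63 and 92.8 FPKM and a distance of 0.161. The third was uncharacterized (TRINITY_DN12320_c0_g1_i16), at 47.6, 6.97 and 107 FPKM.

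The nearest to argonaute 3 was named venom polypeptide (3.95, 3.51 and 13.2 FPKM), followed by protein G12 (2.96, 2.80 and 10.6 FPKM) and an unnamed protein. Those of piwia were tryptophan--tRNA ligase (48.4, 36.3 and 60.2 FPKM), the kinase MARK2 and the mitochondrial import receptor TOM70. Those of piwib were nudE, a poly(A) polymerase and Lasp, and those of argonaute 1 were cytochrome P450 9f2, glycine--tRNA ligase and a zinc finger protein. None of the nearest unigenes of the 5 members belonged to the small RNA lists.

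Virus and mobile element names were read beside the members, as these are targets of siRNAs and piRNAs in Drosophila. A unigene of 12558 bases (TRINITY_DN613_c0_g1_i5) with 88.2% identity to a Nora-like virus stood at 19.6 FPKM in fly 1, was at 0 in fly 2 and stood at 35.5 FPKM in fly 3. The counts were 7854, 0 and 13068 reads. Against a floor of 3 fragments in fly 2, or 0.0141 FPKM, fly 1 was at least 1386-fold and fly 3 at least 2512-fold higher. The fly without reads of this unigene was thus the fly with the lowest argonaute 2, in 3 flies, and whether one bears on the other was not tested. That fly was lowest for all 5 members and for 57.5% of all unigenes whose mean reached 1 FPKM. After median-of-ratios scaling it was lowest for 3 members and 32.2% of those unigenes. The next virus names by mean FPKM were a pair of Gag-Pol unigenes with best hits in a spiretrovirus. They stood at 4.40, 3.82 and 11.01 FPKM (TRINITY_DN3136_c1_g1_i19) and at 1.16, 13.3 and 2.97 FPKM (TRINITY_DN5515_c0_g1_i4), the latter highest in fly 2. Both are also counted among the 73 mobile element names, so the virus and mobile element names overlap.

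The 73 mobile element names summed to 160, 163 and 215 FPKM in flies 1, 2 and 3. The most abundant was a retrovirus-related Pol polyprotein (TRINITY_DN7508_c0_g1_i8, 52.7, 45.2 and 26.2 FPKM), lowest in fly 3. Of the 35 mobile element names whose mean reached 1 FPKM, 23 were highest in fly 3, beside 66.1% of all unigenes with that mean. After median-of-ratios scaling 19 of the 35 were, beside 39.7%. A DD41D transposase (17.2, 7.12 and 13.6 FPKM) and a Tcb1 transposase (10.6, 10.97 and 7.36 FPKM) followed.

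Markers of cell types were summed, since a midgut sample can hold attached tissue and fewer cells of a type cannot be told apart from less RNA per cell. The 70 midgut names, such as trypsins and peritrophins, summed to 17577, 19040 and 13854 FPKM. Of the germline and ovary names 2 were found, a chorion protein at 3.28 FPKM in fly 1 and 0 in flies 2 and 3 and a vitellogenin receptor below 1 FPKM in every fly, and no best hit was named vasa, nanos or oskar, beside piwib at 38.8 to 61.5 FPKM. The 5 stem and progenitor names summed to 47.8, 29.0 and 88.1 FPKM and the 2 hemocyte names to 50.4, 25.9 and 68.9. Single names held most of both sums, up to 59.4 and 64.6 FPKM. Of the 4 stem and progenitor names whose mean reached 1 FPKM, 2 had the order of flies of argonaute 2, as did both hemocyte names, beside 45.1% of all unigenes. The 14 muscle names summed to 697, 704 and 1391 FPKM and the 9 fat body names to 6.75, 24.3 and 97.3. Both sums were highest in fly 3, as were 4 of the 5 members and 66.1% of all unigenes whose mean reached 1 FPKM. The muscle sum was nearly level in flies 1 and 2. The fat body sum was lowest in fly 1, where no member was lowest before scaling and argonaute 3 was after it. Single names reached 545 FPKM in the muscle list and 64.1 FPKM in the fat body list. The part of these cell types in the members' values was not tested.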

How the data were processed

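RNA of 3 midguts was sequenced from total RNA, extracted with TRIzol and made into libraries with a KAPA RNA HyperPrep kit, per the labels' protocols. The deposited table gives FPKM for 8039 assembled unigenes, with the best protein hit, its alignment positions, the percent of identical residues and an alignment score, per the file headers. The aligner, counter, protein database and filters are not named in the labels or file headers. The product of FPKM and length had the same total in all flies, and division of it by its smallest value above 0 gave whole reads, within 0.001, for 97.1% to 97.3% of unigenes. Counting intervals (95%, exact) and the floor of 3 fragments used pairs of 2 reads and cover counting error only.

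The scale was log2(FPKM + 1), computed in Python 3.11.15 with numpy 2.4.6, pandas 2.3.3 and scipy 1.17.1, and no count model was used. A pseudocount of 1 understates the change of low unigenes. Ratios within flies used a two-sided exact sign-flip permutation test over 3 flies, with Benjamini-Hochberg adjustment. P-values rest on these 3 flies alone, and p is 0.25 whenever all 3 share a direction, whatever their spread. The steps were tested on simulated data.

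Members and lists were chosen with earlier results of these data known. The word patterns behind the lists were completed after the names in the table were read, and false matches, such as fibrillarin, Cdc37 and calcyclin, were left out. Named unigenes are the members, the pathway lists, the 3 nearest profiles of each member and the 3 most abundant virus and mobile element names. Alternatives were other scaling, pseudocount, filter, neighbour window and threshold, the median of the piRNA members, and leaving out each fly. Best hits name proteins of other species, reads of similar transcripts can be divided between unigenes in unknown ways, and whether the counting used strand is not given.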

Additional observations from a re-analysis of the deposited data

How the results depend on the processing

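Of 136 alternative values, 44 moved. Only the tested ratios have a sign that could reverse. A mean moved when it changed by more than its SD over flies, which leaving out 1 of 3 flies cannot bring about. A log2 range moved when it left its 95% counting interval and a place when it left its 95% binomial interval. A count moved when it changed by over 1.5 times. The mean log2 value of each tested ratio kept its sign, though not always its size or its direction in each fly. With the median of the piRNA members the mean log2 ratio to argonaute 1 was 0.17 in place of 2.79. The piRNA members were then above argonaute 1 in fly 3 alone, in place of every fly. The mean log2 ratio to argonaute 2 was -4.46 in place of -1.84. No ratio could change its side of the threshold on p, since the smallest exact p with 3 flies is 0.25. Median-of-ratios scaling gave log2 ranges of 3.24 for argonaute 2, 1.17 for argonaute 3, 0.21 for piwia and 0.066 for piwib, and places among neighbours of 36.6% for argonaute 1, 85.3% for argonaute 3, 11.6% for piwia and 0.761% for piwib. It left 1 microRNA name called variable in place of 5. A window of 1 put piwia at 49.2%. A 2-fold threshold called 2 of 4 siRNA, 3 of 14 piRNA and 4 of 6 chaperone names in place of 1 each, and 7 of 12 microRNA names in place of 5, beside 30.3% of all unigenes. The cause of these moves was not tested.

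Leaving out each fly in turn gave means of 199.7 to 525.8 FPKM for argonaute 2 and 3.996 to 9.07 FPKM for argonaute 3, and log2 ranges of 0.12 to 0.47 for argonaute 1, 0.99 to 3.83 for argonaute 2, 0.13 to 1.65 for argonaute 3, 0.31 to 0.71 for piwia and 0.25 to 0.65 for piwib. Places among neighbours ran from 15.8% to 72.9%, 77.9% to 99.4%, 21.8% to 93.3%, 35.8% to 65.8% and 43.9% to 53.5% in the same order. Names called variable ran from 0 to 5 in the microRNA list and from 0 to 1 in the siRNA, piRNA and chaperone lists. The count of all unigenes called, 495, became 299 without fly 2, 149 without fly 3 and 750 without a filter on the mean, and 83 or 295 where flies 1 and 3 had to exceed fly 2 by 4-fold or 2-fold, a rule chosen after the data were seen.

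No paired analysis was possible because the labels give 1 group. With 3 flies the smallest exact p is 0.25, so no ratio could pass a threshold of 0.05, and each difference between flies rests on 1 library a fly. The lowest member value, 3.77 FPKM, still rests on 425 reads, so counting error does not set these limits.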
